A study of Homo sapiens with 8 samples.

Results

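Transgelins, calponins, caldesmon and tropomyosins are proteins that lie along actin filaments. Of their genes, 10 (TAGLN, TAGLN2, CNN1, CNN2, CNN3, CALD1, TPM1, TPM2, TPM3 and TPM4) were examined in human lens epithelial cells. The genes were chosen by name, through the symbols that GENCODE release 29 gives to the Ensembl identifiers, and they are 10 of the 58735 genes of the deposited count table. All 10 were found and all 10 passed the filter on low counts. The 8 libraries fell into 2 groups of 4. The shSmurf1 libraries came from SRA01/04 cells, an immortalised line of human lens epithelial cells, in which a short hairpin RNA lowered SMURF1, a ubiquitin ligase whose known substrates include SMADs of the TGF-β and BMP pathways. The shControl libraries came from SRA01/04 cells with a negative control hairpin, which the labels give the genotype WT. Both groups had been treated with recombinant human TGF-β2 at 20 ng/ml for 48 h, and untreated cells were not analysed here. The labels name a single knockdown line and do not say whether it is 1 clone. The lowering of SMURF1 and any other difference between the lines therefore cannot be told apart. They call the libraries biological replicates without saying that cultures were kept apart, so every p-value is against a spread between libraries that may be technical.

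Tropomyosins form coiled coils that lie end to end in the groove of the actin filament and govern which other proteins can reach it. Caldesmon and the calponins bind actin and restrain myosin, and in smooth muscle that restraint is relieved by calcium-calmodulin and by phosphorylation. Transgelins are small proteins with a single calponin homology domain that bundle actin filaments. In lens epithelial cells under TGF-β several of these genes mark the change to a contractile, myofibroblast-like state that wrinkles the lens capsule in fibrotic cataract, and many of them are classical targets of serum response factor (SRF), which binds a DNA element called the CArG box.

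RefSeq windows on GRCh38.p14, each from 250 bases before to 50 bases after a transcription start, were available for 9 of the 10 genes, in 19 windows, and TAGLN had none in the table used. A CArG box was found in 2 of the 19 windows, 1 each of CNN2 and TPM4, against 1.29% of all 35116 windows. Both are printed because they hold the element in full, with the CArG box in capitals, 5′ to 3′ on the plus strand of chromosome 19. The CNN2 window lies at chr19:1026358-1026657 and its element starts 89 bases before the start. The TPM4 window lies at chr19:16067288-16067587 and its element starts 173 bases before the start.
CNN2: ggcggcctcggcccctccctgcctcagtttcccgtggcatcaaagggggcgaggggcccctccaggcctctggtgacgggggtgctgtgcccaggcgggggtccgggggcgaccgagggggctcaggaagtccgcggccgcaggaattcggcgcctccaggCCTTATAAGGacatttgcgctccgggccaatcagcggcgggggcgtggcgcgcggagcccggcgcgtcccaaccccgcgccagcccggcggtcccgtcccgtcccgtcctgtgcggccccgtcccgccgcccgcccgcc
TPM4: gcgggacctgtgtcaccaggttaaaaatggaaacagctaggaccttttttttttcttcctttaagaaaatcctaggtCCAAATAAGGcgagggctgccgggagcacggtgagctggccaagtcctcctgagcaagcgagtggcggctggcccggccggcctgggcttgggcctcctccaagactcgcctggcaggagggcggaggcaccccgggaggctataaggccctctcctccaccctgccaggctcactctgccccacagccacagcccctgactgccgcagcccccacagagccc

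GGAATG, the core of the element bound by TEAD factors, was searched on both strands. It lay in 3 of the 19 windows, a share close to the 14.0% of all windows, and in 2 of the 4 CALD1 windows. Both are shown because CALD1 had the largest change of the 10 genes, and a part of the element in that change was not tested. The element is in capitals, 5′ to 3′ on the plus strand of chromosome 7. In the first, at chr7:134745217-134745516, the element reads as its reverse complement and starts 42 bases before the start. In the second, at chr7:134779384-134779683, it starts 194 bases before the start.
CALD1, first: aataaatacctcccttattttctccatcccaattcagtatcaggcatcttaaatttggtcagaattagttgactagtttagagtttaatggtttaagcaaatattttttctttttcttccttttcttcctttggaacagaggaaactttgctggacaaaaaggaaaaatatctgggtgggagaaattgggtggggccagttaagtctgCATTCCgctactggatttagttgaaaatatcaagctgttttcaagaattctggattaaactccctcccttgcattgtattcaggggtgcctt
CALD1, second: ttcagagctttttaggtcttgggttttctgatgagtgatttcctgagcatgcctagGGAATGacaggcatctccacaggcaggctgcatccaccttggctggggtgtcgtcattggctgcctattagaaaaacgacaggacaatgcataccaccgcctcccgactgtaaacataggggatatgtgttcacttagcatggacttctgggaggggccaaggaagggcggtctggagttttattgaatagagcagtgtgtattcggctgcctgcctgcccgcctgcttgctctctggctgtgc

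Of the other motifs searched, also on both strands, the SMAD box GTCTAGAC was in none of the 19 windows and 0.202% of all windows. The SMAD half-site CAGACA lay in the CNN1 and TPM1 windows and in 16.9% of all windows, and GGAATG lay also in 1 CNN3 window. A CArG box with 1 mismatch, allowed only in the A and T stretch between its outer CC and GG, lay in 1 CALD1 window and 6.94% of all windows. TATAAA lay in 1 other CALD1 window and 11.5% of all windows, and the SP1 motif GGGCGG was in 14 of the 19 windows and 44.95% of all windows. Among tested genes outside the 10 that have a window, 165 held a CArG box, of which 22.4% were lower and 13.3% higher in shSmurf1. Of the 10651 without one, 13.7% were lower and 10.4% higher. These shares are a description with no test.

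Total counts per library were between 14688651 and 17030394, and 15647 genes were tested. SMURF1 had 50.4 to 51.4 CPM (counts scaled to library size) in shSmurf1 and 85.8 to 93.3 CPM in shControl, and lay at 57.5% of control. The other 116 tested genes within 5 Mb of it on chromosome 7 had a median log2 fold change of −0.23, with 49 called lower and 1 higher, which puts SMURF1 at −0.57 against its neighbours. Replicate 3 of shSmurf1 stood apart: its log2 CPM fell by 0.12 for each 10 points of GC content relative to the mean of all libraries, whereas the other shSmurf1 libraries rose by 0.072 to 0.12 and the shControl libraries lay between −0.063 and −0.020. Calls and list counts that change without it are given both ways. PAX6, a regulator of lens fate, had 29.9 to 39.5 CPM in shSmurf1 and 31.7 to 35.6 CPM in shControl, but FOXE3, PROX1, CRYAB and CRYAA, 4 further lens epithelial markers, were at most 0.806 CPM in shSmurf1 and 1.21 CPM in shControl and were not tested. Of the other 4 lens epithelial markers, VIM (−0.31, edgeR adjusted p = 0.000108) and SIX3 (−0.37, adjusted p = 0.0106) were lower, and EPHA2 and CDH2 did not pass. All 9 summed to 2224 to 2506 CPM in shSmurf1 and 2744 to 2777 CPM in shControl, without overlap. Most of that sum was VIM, at 1608 to 1902 CPM in shSmurf1 and 2101 to 2138 CPM in shControl. The defining smooth muscle genes MYOCD and DES were at most 0.512 CPM in shSmurf1 and 0.623 CPM in shControl. The 7 smooth muscle markers summed to 10.7 to 13.7 CPM in shSmurf1 and 32.6 to 37.1 CPM in shControl, with ACTG2 and ACTA2 lower and the other 5 not called or not tested. Of 6 fibroblast markers, PDGFRB (0.38, edgeR adjusted p = 9.79e-05) and LUM (2.90, adjusted p = 1.12e-05) were higher, 3 did not pass and DCN was not tested. LUM was low in both groups, at 1.97 to 2.50 CPM in shSmurf1 and 0.135 to 0.560 CPM in shControl. They summed to 1785 to 2489.7 CPM in shSmurf1 and 2205 to 2422 CPM in shControl, with overlap. The part of these markers in the results below was not tested. In such bulk libraries fewer cells of a kind and less RNA per cell cannot be told apart.

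In shSmurf1 cells 7 of the 10 genes fell and 0 rose, while TAGLN2, TPM1 and TPM3 did not pass the test. A call is an adjusted p under 0.05 in edgeR's quasi-likelihood test with Benjamini-Hochberg adjustment over all 15647 genes. Over all genes tested, 12.2% were called lower and 10.3% higher by that rule. With DESeq2, and again with limma-voom, 7 were lower and 0 higher. At an unadjusted p under 0.05 in edgeR, the count of higher genes was also 0. The median log2 fold change of the 10 genes was −0.35, against 0.01 for all genes tested. The libraries of the groups did not overlap in 8 of the 10 genes, all 8 lower in shSmurf1, where 13.1% of all genes tested lay apart in that direction. Together the 10 genes held 3917 to 4040 CPM in the shSmurf1 libraries and 4720 to 4824 CPM in the shControl libraries, or 83.0% of control. The plot of CPM by library shows where the groups separate.

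**Figure D1:**
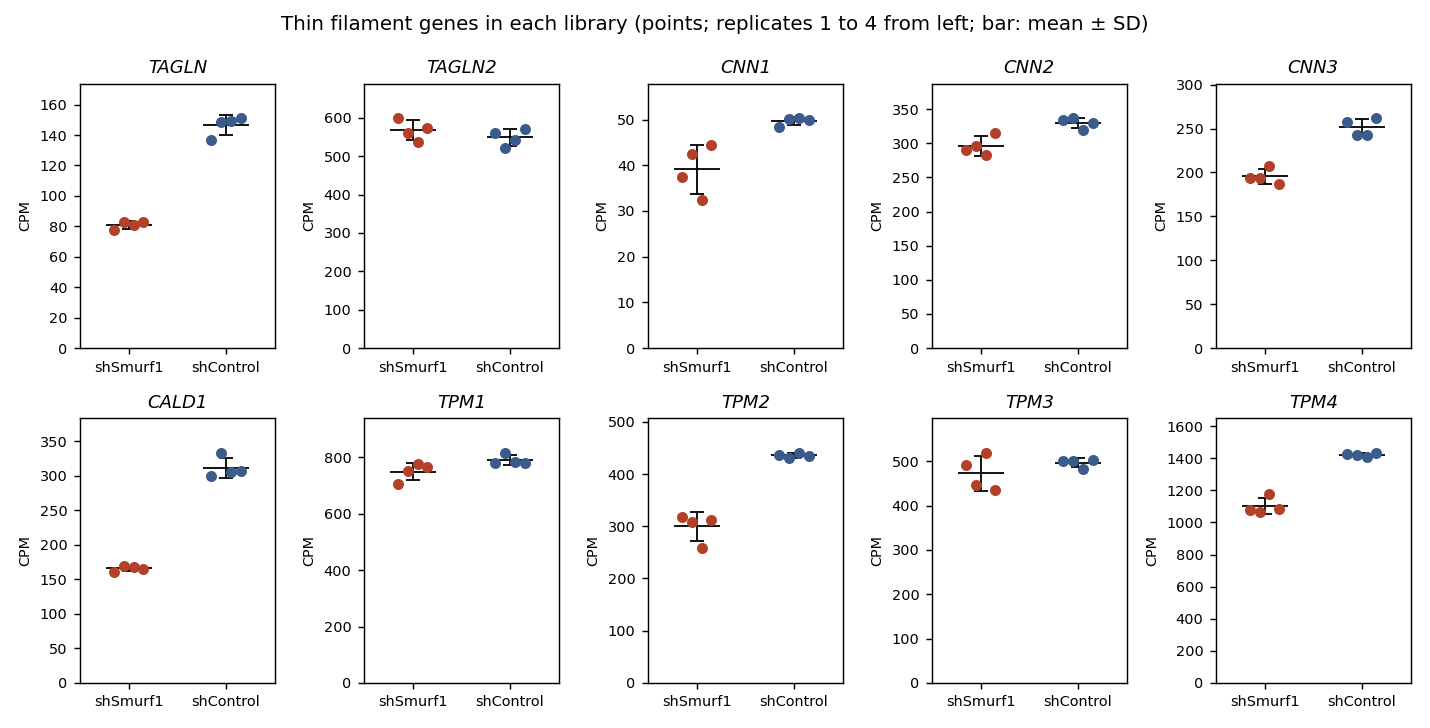
Level of each of the 10 genes in every library, in CPM from 0 (y axis), with the 4 shSmurf1 libraries left of the 4 shControl libraries in each panel; points are libraries and bars show the mean ± SD. TAGLN at 77.6 to 83.1 CPM and CALD1 at 161 to 169 CPM in shSmurf1 lie far under shControl, and the groups overlap in TAGLN2 and TPM3.

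TAGLN, transgelin, the smooth muscle member of its family (ENSG00000149591, GRCh38 chromosome 11, 117199321 to 117204782, plus strand), had 77.6, 83.0, 80.6 and 83.1 CPM in shSmurf1 replicates 1 to 4, and 137, 149, 149 and 151 CPM in shControl replicates 1 to 4. Every shSmurf1 library was below every shControl library, by a gap far wider than the range within either group. The log2 fold change was −0.85 ± 0.053 (SE; edgeR adjusted p = 8.31e-10), which leaves 55.4% of the control level. Of all genes tested, 1.63% had a log2 fold change as low or lower. TAGLN shares 446 bases, 11.4% of its exon length, with PCSK7 on the opposite strand, and reads there cannot be assigned without strand. PCSK7 itself did not pass (0.19 ± 0.069, edgeR adjusted p = 0.0532).

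TAGLN2, the paralog found in most cell types (ENSG00000158710, chromosome 1, 159918107 to 159925732, minus strand), had 599, 562, 537 and 574 CPM in shSmurf1 and 561, 522, 541 and 571 CPM in shControl. The groups overlapped. Its log2 fold change of 0.05 ± 0.047 did not pass (edgeR adjusted p = 0.513), and with each library's trend with GC content removed it lay at −0.0079. TAGLN accordingly made up 11.5% to 13.1% of the reads of TAGLN and TAGLN2 together in shSmurf1 libraries and 19.6% to 22.2% in shControl libraries. Counted per kb of exon, the TAGLN share averaged 8.32% ± 0.50 in shSmurf1 and 14.5% ± 0.83 in shControl (SD, n = 4 each).

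All 3 calponins fell. CNN1, the basic calponin of differentiated smooth muscle (ENSG00000130176, chromosome 19, 11538717 to 11550323, plus strand), had 37.3, 42.4, 32.5 and 44.5 CPM in shSmurf1 and 48.4, 50.1, 50.3 and 49.8 CPM in shControl. The shControl libraries lay close together, and the shSmurf1 libraries were spread more widely but all lower. CNN1 had a log2 fold change of −0.34 ± 0.082 (edgeR adjusted p = 0.00458). Without shSmurf1 replicate 3, the lowest library, it was −0.26 (adjusted p = 0.00164).

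CNN2, a calponin of non-muscle and smooth muscle cells (ENSG00000064666, chromosome 19, 1026581 to 1039068, plus strand), had 289, 296, 283 and 315 CPM in shSmurf1 and 333, 337, 319 and 329.5 CPM in shControl. The groups came close without overlapping, with the highest shSmurf1 library at 315 CPM and the lowest shControl library at 319 CPM. The log2 fold change was −0.16 ± 0.047 (edgeR adjusted p = 0.0226). That call was lost without shSmurf1 replicate 1 (adjusted p = 0.0707) or without shControl replicate 1, 2 or 4 (0.0611, 0.0747 and 0.0595), over a range of 3.89e-06 to 0.0747 in the 17 alternative fits. With each library's GC trend removed the log2 fold change was −0.23 (adjusted p = 4.87e-05). The 11 annotated CNN2 pseudogenes together had 47 reads in the 8 libraries, 0.119% of the reads of CNN2.

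CNN3, the acidic calponin of non-muscle cells (ENSG00000117519, chromosome 1, 94896949 to 94927278, minus strand), had 194, 194, 208 and 187 CPM in shSmurf1 and 257, 243, 243 and 262 CPM in shControl. No shSmurf1 library reached the shControl range. CNN3 had a log2 fold change of −0.36 ± 0.050 (edgeR adjusted p = 2.55e-05). Its neighbours were lower too: the other 47 tested genes within 5 Mb had a median log2 fold change of −0.26, and 20 of them were called lower. Relative to that median CNN3 lay at −0.097, and its neighbours' part in its fall was not tested. As a family the calponins held 521 to 547 CPM in shSmurf1 and 612 to 641 CPM in shControl. The CNN2 share of their reads averaged 55.7% ± 1.46 in shSmurf1 and 52.3% ± 0.866 in shControl, without overlap between libraries, and the CNN1 and CNN3 shares overlapped.

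CALD1, caldesmon (ENSG00000122786, chromosome 7, 134744252 to 134970728, plus strand), had 161, 169, 168 and 165 CPM in shSmurf1 and 300.0, 333, 305 and 307 CPM in shControl. The groups lay far apart, with the shSmurf1 libraries the tighter group. The log2 fold change was −0.91 ± 0.049 (edgeR adjusted p = 9.21e-11), or 53.2% of the control level, and 1.35% of all genes tested had one as low or lower. The other 51 tested genes within 5 Mb had a median log2 fold change of −0.25, with 25 called lower and 3 higher. CALD1 lay at −0.66 relative to that median. The table sums the long caldesmon isoform of smooth muscle and the short isoform of other cells, so which of them fell cannot be read from it.

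TPM2, β-tropomyosin, which is rich in muscle (ENSG00000198467, chromosome 9, 35681992 to 35690121, minus strand), had 319, 309, 258 and 313 CPM in shSmurf1 and 437, 430.1, 440.5 and 435 CPM in shControl. All shSmurf1 libraries were lower, replicate 3 the lowest by a wide margin. TPM2 had a log2 fold change of −0.54 ± 0.057 (edgeR adjusted p = 1.07e-06), and −0.47 without that library (adjusted p = 6.00e-12). With the GC trend removed it was −0.61, the lowest value in any alternative.

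TPM4, a tropomyosin of the cytoskeleton of non-muscle cells (ENSG00000167460, chromosome 19, 16067021 to 16103005, plus strand), had 1079.9, 1064, 1179 and 1085 CPM in shSmurf1 and 1425, 1422, 1406 and 1434 CPM in shControl. The shControl libraries lay close together, and each shSmurf1 library was well below them. The log2 fold change was −0.37 ± 0.043 (edgeR adjusted p = 3.79e-06), a mean of 1102 ± 51.9 CPM in shSmurf1 against 1422 ± 11.7 CPM in shControl (SD, n = 4 each). TPM4 supplied more reads than any other tropomyosin gene, and its drop was the largest of the 10 genes in CPM.

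TPM1, α-tropomyosin (ENSG00000140416, chromosome 15, 63042632 to 63071915, plus strand), had 705, 751, 776 and 765 CPM in shSmurf1 and 779, 816, 784 and 780.2 CPM in shControl. The groups did not overlap, but lay close to each other, and the log2 fold change of −0.08 ± 0.044 did not pass (edgeR adjusted p = 0.245). TPM3, a tropomyosin of slow muscle and of non-muscle cells (ENSG00000143549, chromosome 1, 154155304 to 154194648, minus strand), had 492, 447, 519 and 435 CPM in shSmurf1 and 502, 501, 482 and 503 CPM in shControl. Its groups overlapped, with a log2 fold change of −0.07 ± 0.053 (edgeR adjusted p = 0.393). Without shSmurf1 replicate 3 both genes passed as lower, TPM1 at −0.09 (adjusted p = 0.0409) and TPM3 at −0.12 (adjusted p = 0.0202). With the GC trend removed as well as that library, TPM1 lay at −0.07 (adjusted p = 0.152) and TPM3 at −0.054 (adjusted p = 0.300) and neither passed.

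TPM1 shares 2070 bases, 16.1% of its exon length, with the antisense gene TPM1-AS, which was chosen after its values were seen. TPM1-AS had 182, 205, 126 and 184 counts in shSmurf1 and 295, 289, 338 and 305 counts in shControl. It fell by 0.79 ± 0.12 on the log2 scale (edgeR adjusted p = 7.83e-05), and TPM1 itself did not pass. Without strand, reads over the shared bases cannot be assigned to TPM1 or to TPM1-AS, and the difference between the 2 genes was not tested. The 8 annotated pseudogenes of TPM3 had 517 reads in all, 0.847% of the reads of TPM3, of which TPM3P9 had 498.

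**Figure D2:**
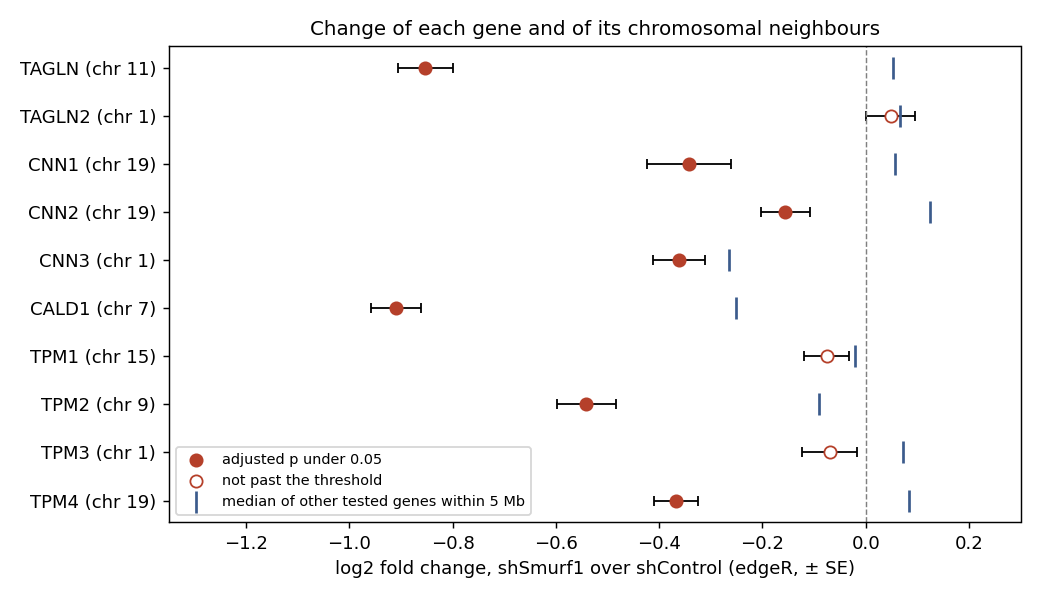
Log2 fold change of each gene, shSmurf1 over shControl, with its SE (x axis, edgeR), filled where it passed an adjusted p of 0.05, and the median of the other tested genes within 5 Mb as a vertical mark. CALD1 (−0.91) and TAGLN (−0.85) lie furthest to the left, and the marks of CNN3 (−0.26) and CALD1 (−0.25) are the only ones under −0.1.

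The medians of the neighbours of the other 8 genes were between −0.09 for the 90 tested neighbours of TPM2 and 0.13 for the 170 of CNN2, of which 1 was lower and 34 higher. Relative to those medians CNN2 lay at −0.28 and TPM3 at −0.14, each over 1.5 times its own log2 fold change. Among the 68 tested neighbours of TAGLN, 3 were lower and 12 higher, and TAGLN lay at −0.91 relative to their median of 0.05.

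The share of each gene among the tropomyosin reads differed between the groups without overlap. TPM1 averaged 28.6% ± 1.03 of them in shSmurf1 and 25.1% ± 0.472 in shControl, and TPM3 18.0% ± 1.13 in shSmurf1 and 15.8% ± 0.224 in shControl (SD, n = 4 each). TPM2 averaged 11.4% ± 1.33 in shSmurf1 and 13.9% ± 0.240 in shControl. TPM4 averaged 42.0% ± 0.794 in shSmurf1 and 45.2% ± 0.268 in shControl, but per kb of exon its share ranged from 37.2% to 40.4% in shSmurf1 and from 39.1% to 39.5% in shControl, and the groups overlapped. The family as a whole held 2571 to 2732 CPM in shSmurf1 and 3112 to 3168 CPM in shControl, or 83.5% of control. A tropomyosin gene makes several isoforms from alternative starts and exons, which the gene counts add together.

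**Figure D3:**
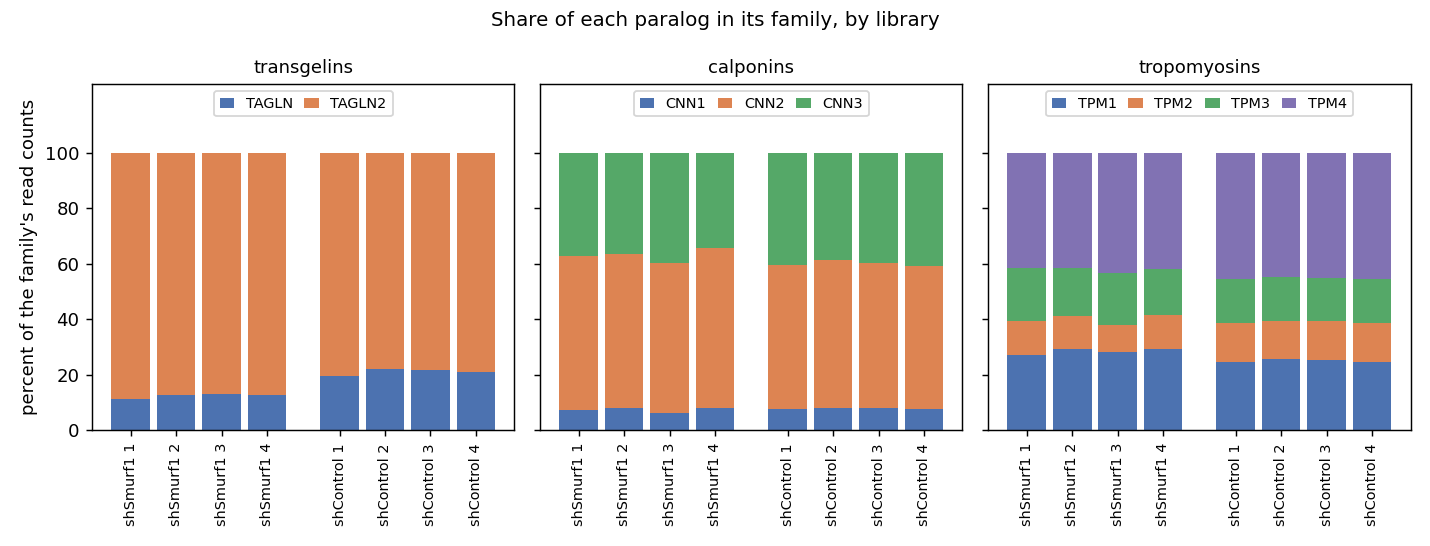
Percent of the reads of each family (y axis) that came from each paralog, one bar per library, with the 4 shSmurf1 libraries left of the 4 shControl libraries. The TAGLN part is 11.5% to 13.1% in shSmurf1 and 19.6% to 22.2% in shControl, and the CNN1 and CNN3 parts overlap between the groups.

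Per kb of exon the 10 genes stood in the same order of mean level in both groups. TAGLN2 was the most abundant, at 228 ± 10.5 CPM per kb in shSmurf1 and 221 ± 8.74 in shControl (SD, n = 4 each). TPM4, TPM2, CNN2, CNN3, TPM1, TPM3, TAGLN and CALD1 followed, and CNN1 was the least abundant, at 13.6 ± 1.86 CPM per kb in shSmurf1 and 17.2 ± 0.303 in shControl. The ranges of TPM2 and CNN2 and of TPM1 and TPM3 overlapped in shSmurf1, as did those of CNN2 and CNN3 in shControl. The other neighbours in the order were apart in every library. These levels rest on the summed length of all annotated exons, which understates a gene with many rarely used exons such as TPM1.

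Genes that work with these proteins were taken from 7 lists, and their counts are read against the 12.2% of all genes called lower and the 10.3% called higher. In the list of stress fibre cross-linkers and LIM proteins, 17 of 24 tested fell and 1 rose, with a median log2 fold change of −0.30. FLNC, a filamin of muscle (−0.47 ± 0.064), LPP, a zyxin relative at focal adhesions (−0.46 ± 0.056), and TRIP6, another of that family (−0.41 ± 0.074), fell furthest among the genes called (edgeR adjusted p = 2.16e-05, 7.45e-06 and 0.00042). FLNC and TRIP6 lie on chromosome 7 among neighbours with medians of −0.23 and −0.22, and lay at −0.25 and −0.19 relative to them. The 1 gene that rose was SYNPO, synaptopodin (0.41 ± 0.069), named after its value was seen. Leaving out shSmurf1 replicate 3 gave 18 lower and 3 higher.

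Of 15 tested smooth muscle contractile genes outside the 10, 9 fell and 2 rose, with a median of −0.22. MYH11, LMOD1 and HSPB6, named after their values were seen, did not pass (0.34 ± 0.30, −0.10 ± 0.30 and 0.12 ± 0.29). MYLK, which fell, is also in the list of kinases below, and LMOD1 is also in the list of capping proteins. These lists are thus not independent. ACTG2, γ smooth muscle actin, had 1.55 to 3.33 CPM in shSmurf1 and 17.6 to 24.6 CPM in shControl (−2.91 ± 0.17, edgeR adjusted p = 2.04e-10), and ACTA2, α smooth muscle actin, also fell (−0.97 ± 0.17, adjusted p = 0.000300). PPP1R14A, an inhibitor of myosin phosphatase, rose to 6.05 ± 1.33 CPM in shSmurf1 against 2.81 ± 0.468 CPM in shControl (1.10 ± 0.19, edgeR adjusted p = 0.000291; SD, n = 4 each). SYNM, an intermediate filament protein, did not pass (0.14 ± 0.063, adjusted p = 0.134). The other gene that rose was PPP1R12B, a myosin phosphatase subunit (0.41 ± 0.086), named after its value was seen.

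In the list of tropomodulins, leiomodins and capping proteins, 3 of 11 tested genes fell and 0 rose, with a median of −0.10. That list also holds TAGLN3, a further transgelin gene, and NEB, both named after their values were seen. Neither passed (0.06 ± 0.18 and −0.20 ± 0.28). TAGLN3 averaged 3.29 CPM in shSmurf1 and 3.16 CPM in shControl, and was not counted in the transgelin shares above. The unadjusted edgeR p of 1 higher gene, TMOD1, was under 0.05 (0.48 ± 0.22, adjusted p = 0.138; named after its value was seen), while the count of higher genes was 0 with DESeq2 and with limma-voom. CAPZA2 (−0.39 ± 0.062) and CAPZA1 (−0.25 ± 0.068), α subunits of the barbed-end capping protein, and GSN, the severing protein gelsolin (−0.37 ± 0.058), fell (edgeR adjusted p = 0.000127, 0.0112 and 9.32e-05). The neighbours of CAPZA2 on chromosome 7 had a median of −0.46, below CAPZA2 itself, and those of CAPZA1 on chromosome 1 a median of −0.23. CAPZB, the β subunit, did not pass (−0.11 ± 0.049, adjusted p = 0.133). Leaving out shSmurf1 replicate 3 gave 4 lower and 1 higher in this list.

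Formins and Arp2/3 subunits, which nucleate actin filaments, had 6 of 20 lower and 1 higher, with a median of −0.16. Among the genes called, DAAM1, a formin (−0.62 ± 0.10), and ACTR2 and ACTR3, the actin-related subunits of Arp2/3 (−0.43 ± 0.055 and −0.33 ± 0.055), fell furthest. DIAPH1, another formin, did not pass (0.07 ± 0.045, edgeR adjusted p = 0.302). The 59 tested neighbours of DAAM1 had a median of −0.21, with 29 lower, and DAAM1 minus that median was −0.41. INF2, also a formin, was the 1 that rose (0.28 ± 0.063), named after its value was seen. Without shSmurf1 replicate 3 the number lower was 10. Of 22 actin turnover factors, 5 fell and 2 rose, with a median of −0.10. PFN2, a profilin (−0.42 ± 0.057), CFL2, the muscle cofilin (−0.41 ± 0.064), and CAP1, a cyclase-associated protein (−0.33 ± 0.048), fell furthest. The 130 tested neighbours of CAP1 had a median of −0.16, with 45 lower, and CAP1 lay at −0.17 relative to it. CFL1, the main cofilin of non-muscle cells, did not pass (−0.03 ± 0.051, edgeR adjusted p = 0.778). The 2 that rose were CORO2B and TMSB4X (0.24 ± 0.084 and 0.18 ± 0.057), named after their values were seen. Without shSmurf1 replicate 3, 10 actin turnover factors were lower and 3 higher, and the number higher was 0 without shSmurf1 replicate 1 or without shControl replicate 2, 3 or 4.

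Kinases, phosphatases and calmodulins that act on calponin, caldesmon or myosin light chain had 6 of 18 lower and 1 higher, with a median of −0.09. DAPK1, a death-associated kinase (−0.78 ± 0.093), CAMK2D, a calmodulin-dependent kinase (−0.34 ± 0.093), and PAK2, a p21-activated kinase (−0.24 ± 0.057), fell furthest (edgeR adjusted p = 4.44e-06, 0.0115 and 0.00391), and CALM2, a calmodulin gene, did not pass (−0.08 ± 0.058). PRKCA, protein kinase Cα, was the 1 that rose (0.20 ± 0.048), named after its value was seen. Without shSmurf1 replicate 3, 10 were lower and 2 higher. Of the 8 troponin genes, which sit on the thin filament of striated muscle, only TNNT1 was tested. TNNT1 had 61.7 ± 6.78 CPM in shSmurf1 and 65.1 ± 3.41 CPM in shControl and did not pass (−0.07 ± 0.072, edgeR adjusted p = 0.511), and the other 7 were at most 0.337 CPM in any library.

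**Figure D4:**
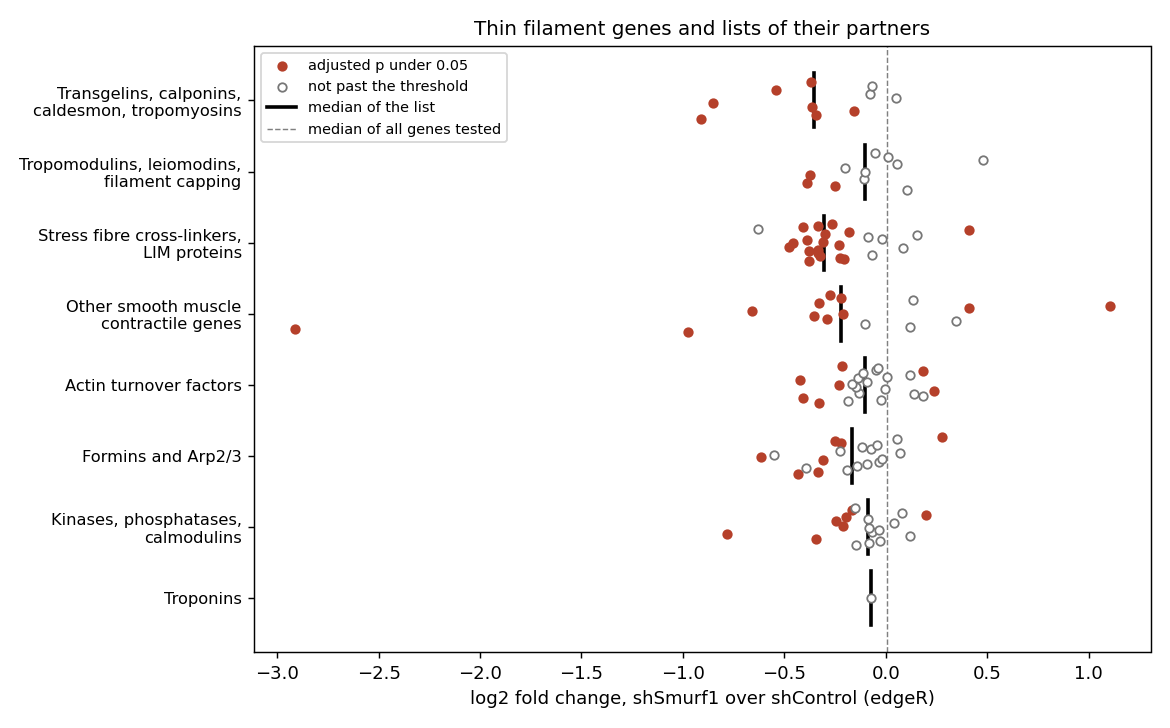
Log2 fold change of each tested gene, shSmurf1 over shControl (x axis, edgeR), in the 10 thin filament genes (top row) and the 7 lists of partners, filled where the adjusted p was under 0.05, with each list's median as a black line and the median of all genes tested as a dashed line. The medians of the 10 genes (−0.35) and of the stress fibre list (−0.30) lie furthest to the left, and ACTG2 (−2.91) is the point apart.

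For the most abundant member of each family, the gene nearest in profile was sought. Candidates were protein-coding genes with a mean log2 CPM of at least 4. The thin filament genes examined here, and genes within 5 Mb of the member, were left out of the candidates. Whether another thin filament gene lies as close as the genes named is therefore not shown. Distance was the root mean square difference of centred log2 CPM over the 8 libraries. CALD1 was nearest to VEPH1 (0.0524) and ARID5B (0.0551), against a median of 0.461 over 8636 genes. VEPH1 and ARID5B had log2 fold changes of −0.89 ± 0.080 and −0.85 ± 0.061. TPM4 was nearest to TFDP1 (0.0186) and to FHL2 (0.0249), a LIM protein of the stress fibre list, against a median of 0.205. CNN2 was nearest to TP53BP2 and BCOR (0.0202 and 0.0228, median 0.139), and TAGLN2 to CDC14B and SMYD5 (0.0258 and 0.0267, median 0.129).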

How the data were processed

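RNA-seq was performed on 8 libraries, 4 shSmurf1 and 4 shControl. The authors deposited a table of raw counts, whole numbers of reads for each gene, without scaling. CASAVA, fastp, HISAT2 2.0.5 and featureCounts 1.5.0-p3 were used, per the submitters' processing notes, while neither genome build nor annotation is named there. Poly(A) RNA was selected and no strand-marking step is described, per the labels' protocols. All 58735 identifiers matched GENCODE 29 (GRCh38), which gave symbols, positions, exon lengths and GC content. Genes were filtered with filterByExpr (minimum count 10), scaled by TMM and tested with edgeR 4.0.16 in R 4.3.3, with no covariate. SE was obtained as the absolute log2 fold change over √F, and CPM uses TMM-scaled library sizes. Depth was 14688651 to 17030394 counts, and counting error is smallest for the most abundant genes. Alternatives were DESeq2 1.42.0, limma-voom (limma 3.58.1), DESeq2 size factors, no scaling, 2 other filters, a replicate block, removal of each library's GC trend and leaving out each library. Removal of the GC trend without shSmurf1 replicate 3 was chosen after seeing the data. The fit was tested on simulated data. The 10 genes and the lists were chosen with earlier results of these data known. Named genes were the 10, SMURF1, up to 3 called members per list with the largest change, the highest not called, and the nearest profiles. A gene that the rule names is not reported here. The comparison of protein sequences was not run.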

Additional observations from a re-analysis of the deposited data

Results flagged for a closer look

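In a group of 4 libraries, the highest or lowest lay farther from the rest than chance usually gives in 4 of the 22 groups examined, and chance flags about 1 in 20. TPM2 in shSmurf1 replicate 3 had 258 CPM, against 309 to 319 CPM in the other shSmurf1 libraries. TAGLN in shControl replicate 1 had 137 CPM, against 149 to 151 CPM in the other shControl libraries. TPM1 in shControl replicate 2 had 816 CPM, against 779 to 784 CPM in the others. TPM3 in shControl replicate 3 had 482 CPM, against 501 to 503 CPM in the others.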

How the results depend on the processing

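TAGLN, CNN1, CNN3, CALD1, TPM2 and TPM4 kept their direction and call in all 17 alternative fits, with log2 fold changes of −0.95 to −0.83, −0.42 to −0.26, −0.39 to −0.30, −0.93 to −0.83, −0.61 to −0.47 and −0.40 to −0.34. CNN2 lost its call in 4 of the 8 fits without 1 library. Members called lower numbered 6 to 9 without 1 library and 7 in every other fit, with 0 higher throughout. Deviations from the group means showed no pairing by replicate number. Their correlations were −0.14 to 0.047 for the same number and −0.13 to 0.12 for different numbers. Whether same-numbered samples were handled together cannot be read from them. With the replicate number as a block, 7 members were lower, as were 1774 genes in all, with 1418 higher, against 1916 and 1611 without it. Without 1 library, genes called higher numbered 1216 to 2601 and genes called lower 1547 to 2747, both highest without shSmurf1 replicate 3. The cause was not tested. Among the lists, stress fibre genes called higher numbered 2 with no scaling and 1 to 3 without 1 library. Higher actin turnover factors numbered 1 with DESeq2, limma-voom, no filter, the replicate block or the GC trend removed, with or without shSmurf1 replicate 3, and 0 to 3 without 1 library. Lower ones numbered 10 with the GC trend removed, 12 without that replicate as well, and 5 to 10 without 1 library. Without 1 library, lower formins and Arp2/3 genes numbered 5 to 10, lower kinases 4 to 10, higher kinases 1 to 2 and higher capping genes 0 to 1. Higher kinases numbered 2 with the GC trend removed and that replicate left out, and 1 troponin was lower with the GC trend removed.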
